A study of Homo sapiens with 6 samples.

Results

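PMEPA1, FKBP5 and RDH11 are 3 genes that androgens switch on in prostate cells, and AGO2 was found on all of their messenger RNAs. The members are all peaks whose listed gene name is one of these. They number 23 of the 7772 AGO2 peaks in the list, with 13 for PMEPA1, 8 for FKBP5 and 2 for RDH11. No peak under another name lay within 20000 nt of the stretch that each gene's peaks span, and all 23 were on the minus strand, 13 on chromosome 20, 8 on chromosome 6 and 2 on chromosome 14.

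The peaks come from HITS-CLIP, in which ultraviolet light fixes a protein to the RNA it touches and the RNA bound by that protein is isolated and sequenced. The cells were 22RV1, 1 human prostate cancer line, transfected with 20 nM of a miR-194 mimic (3 libraries) or 20 nM of a negative control (3 libraries) and irradiated after 24 h. Both groups were grown in the same serum medium and no androgen was added or withdrawn, so that the androgen response of the 3 genes is background knowledge and was not measured. Separate cultures for the libraries of 1 group are not stated in the labels. The list gives 1 score per merged peak with no value per library, so a comparison of mimic with control cells was not possible no value below has a replicate, and the depth behind a peak is unknown. The score is the authors' own, on a scale that the sources used here do not explain, and it served only to describe and rank peaks within this list. Of 7 markers of prostate epithelial cells, FOXA1 and STEAP2 had a peak, and KRT8, KRT18, EPCAM, KLK3 and HOXB13 had none. Of 16 markers of blood, vessel and stromal cells 0 had one. The share of all expressed genes with a peak is not known here, so these counts do not identify the cells. A gene without a peak is not thereby shown to be unexpressed.

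MicroRNAs guide AGO2 to messenger RNAs mainly through the seed, a short stretch near the 5' end of the microRNA that pairs with complementary bases, most often in the 3' untranslated region (UTR) of the target. Bound transcripts are translated less or decay faster. The 3 genes act at different steps of hormone and growth control. PMEPA1 is a membrane protein that binds NEDD4-type ubiquitin ligases and restrains TGF-beta signalling by holding SMAD proteins. FKBP5 is a co-chaperone of HSP90 that is part of steroid receptor complexes. RDH11 is an enzyme of the endoplasmic reticulum that reduces retinal to retinol and is abundant in prostate epithelium.

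Matches to the miR-194-5p seed were listed in 1 peak of PMEPA1, in 1 of RDH11 and in none of FKBP5. The sequences are shown because these 2 are the listed miR-194 sites of the 3 genes. The microRNA is from RefSeq (GRCh38.p14), with bases 2 to 8, the seed, in capitals. Each site is shown with 22 bases before it and 1 after it, with the 7 bases complementary to the seed in capitals. These windows were read from the GENCODE 29 transcripts (GRCh38) that match the listed RefSeq accessions, by finding the listed bases, each of which occurs once there. No hg19 sequence was used.
miR-194-5p: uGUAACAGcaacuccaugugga
PMEPA1 site: ctttcccaaaaatgaaaataaaCTGTTACc
RDH11 site: catgtccagatttactttgcttCTGTTACt

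Both sites are 7mer-m8 matches: they pair with bases 2 to 8 of the microRNA and lack the A opposite base 1 that would make an 8mer. The base after the match is C in PMEPA1 and T in RDH11. The predicted pairing of the whole microRNA with the 30-base window was weaker in PMEPA1, at -9.8 kcal/mol, than in RDH11, at -13.4 kcal/mol. The median over 80 such 7mer-m8 sites in 3' UTR peaks was -12.25 kcal/mol. The PMEPA1 value was stronger than 13.8% of those sites and the RDH11 value than 61.2%. The windows were 70% A or T in PMEPA1 and 63.3% in RDH11, against a median of 60% for the same 80 sites.

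Each of these sites is the only match of its kind in its transcript. The 6mer TGTTAC, opposite bases 2 to 7, occurs 1 time in the 4845 nt of the PMEPA1 transcript and 1 time in the 1064 nt of the RDH11 transcript listed for their 3' UTR peaks. In PMEPA1 the 7mer starts at base 980 of a 3661-nt 3' UTR. In RDH11 it starts at base 203 of a 287-nt 3' UTR, and other RDH11 transcripts have 3' UTRs of up to 1520 nt. Among protein-coding GENCODE 29 transcripts, 4 of 7 for PMEPA1 and 4 of 6 for RDH11 hold the 6mer. The PMEPA1 and RDH11 transcripts without it have annotated 3' UTRs of at most 16 nt. The transcripts of FKBP5 hold none: the 6mer is absent from all 4, the longest of which has 7384 nt. Of 141 3' UTRs with AGO2 peaks that are 0.8 to 1.2 times as long as the 2250 nt of FKBP5, 66.7% hold the 6mer and 52.5% hold one of the 7mers CTGTTAC or TGTTACA, both of which contain it. For 3' UTRs as long as that of PMEPA1 these shares were 74.5% and 51.6%, and for those as long as the 287 nt of RDH11 21.7% and 13.0%. The matched RDH11 peak extends past the end of this short 3' UTR, and no share was taken for the longer ones. Motifs were searched on the transcript's own strand.

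Among all 23 peaks, 2 held a 7mer match (8.70%, exact Clopper-Pearson 95% interval 1.07 to 28.0%), where 13.4% of all peaks in the list do. A 7mer match here means an 8mer, 7mer-m8 or 7mer-A1 listed on the transcribed strand. Of the 15 peaks in 3' UTRs, 2 held one (13.3%, 1.66 to 40.5%), beside 19.8% of all 3' UTR peaks. The 0 of 8 FKBP5 peaks allow a share of up to 37.5%. At the level of genes, 2 of the 3 had a match, beside 23.6% of all 3659 genes with a peak. These intervals cover counting error only, and they are wide enough to include the shares of the whole list. No variant site, 6mer or opposite-strand site was listed for any of the 3 genes, whereas 19.9% of all peaks had a site of some kind.

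Counted singly, the peaks lay mostly in 3' UTRs, and none lay in coding exons. Of the 23, 15 were in 3' UTRs, 7 in introns and 1 at a promoter and transcription start. In the whole list 23.0% of peaks were in 3' UTRs, 33.0% in coding exons and 20.4% in introns. PMEPA1 had 9 peaks in its 3' UTR, 3 in introns and 1 at its transcription start. FKBP5 had 4 in its 3' UTR and 4 in introns, and both RDH11 peaks were in its 3' UTR. The majority in 3' UTRs depends on counting close peaks singly. With peaks under 50 nt apart joined, 3' UTRs held 1 of 5 regions in PMEPA1, 2 of 5 in FKBP5 and 1 of 1 in RDH11. No share of the whole list joined in this way is given here. Over the 23 peaks, of which 13 belong to PMEPA1, the median score was 55, against 15 in the whole list and 17 in all 3' UTR peaks. By gene the medians were 74 for PMEPA1, 21 for FKBP5 and 207 for RDH11. Of the 23 peaks, 20 exceeded 15, as 44.6% of all peaks do. These were 13 of 13 for PMEPA1, 5 of 8 for FKBP5 and 2 of 2 for RDH11.

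**Figure D1:**
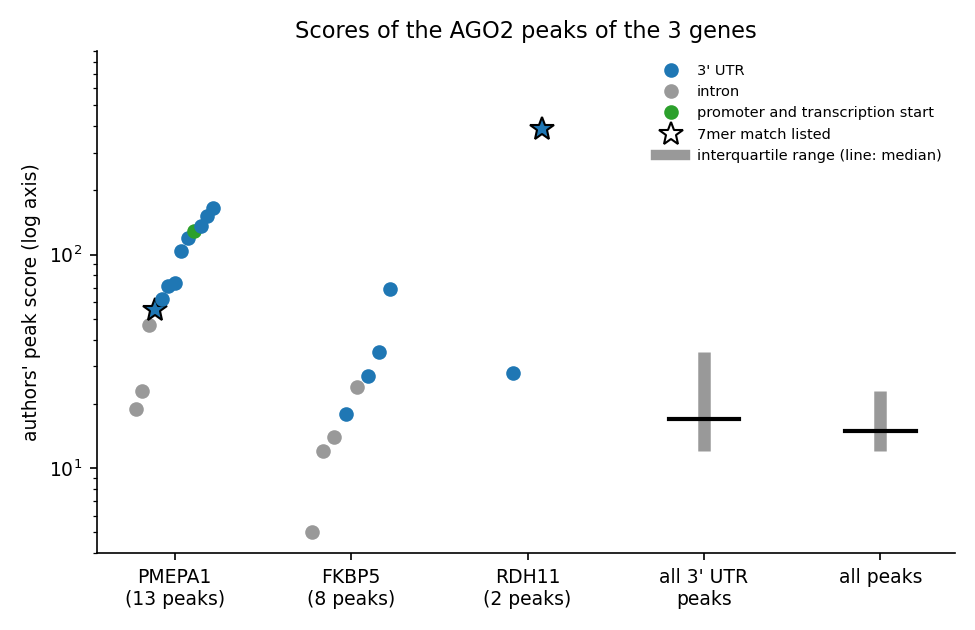
Score of every AGO2 peak of PMEPA1, FKBP5 and RDH11 (points, log axis) by part of the gene, with stars for the peaks with a 7mer match, beside the interquartile range and median of all 3' UTR peaks and of all peaks. The RDH11 peak with a match stands at 386, and the PMEPA1 peak with a match, at 55, is the lowest of that gene's 3' UTR peaks.

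RDH11 had the highest score of the 3 genes, and it belonged to the peak with the miR-194 match. This peak covers chr14:68144671-68144975 (hg19, minus strand, exon 6 of 6, 3' UTR) and scored 386. It ranked 10th among the 1791 3' UTR peaks, and 99.6% of all 7772 peaks scored lower. With 305 nt it was longer than 99.7% of 3' UTR peaks. Its neighbour just upstream, chr14:68144980-68145016, was 37 nt long, held no listed site and scored 28. The site's centre was listed 9 nt before the centre of the peak, and the median distance over 297 7mer sites in 3' UTR peaks was 13 nt. The matched peak held 93.2% of the gene's summed score of 414.

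The ratio of the matched to the unmatched peak of RDH11 was 13.8. There were 80 genes with exactly 2 peaks in the 3' UTR and a match in 1 of them, and the matched peak scored higher in 67 of these and lower in 9. Their median ratio was 2.57, and RDH11 had the 5th highest. This rank is of scores not divided by length, and the 2 RDH11 peaks lie only 4 nt apart. The peaks differed in length as well as in score: per 100 nt the matched RDH11 peak scored 127 and the other 75.7. Counted from the listed site, the RDH11 peak reached 80 nt beyond the end of the listed short transcript, while the longest RDH11 3' UTR has room for all of it.

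PMEPA1 showed the opposite order. Its matched peak, chr20:56226104-56226266 (hg19, minus strand, exon 4 of 4, 3' UTR, 163 nt), scored 55 and was the lowest of the 9 in the 3' UTR. The 8 without a listed site scored 62, 165, 74, 152, 71, 104, 120 and 136 in 5' to 3' order, with the matched peak between those of 120 and 136. The highest of them, 165, covers chr20:56226832-56226910, and 97.9% of all peaks scored lower. All 8 scored at least 62, a score reached by 6.23% of the 1285 3' UTR peaks without a listed site, whose median was 15. The matched peak itself scored above 85.9% of all 3' UTR peaks. Per 100 nt it was again the lowest of the 9, with 33.7 against 50.7 to 227 in the others. It held 4.75% of the gene's summed score of 1157, which only 9 of the 3659 genes exceeded.

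The matched peak was seldom the lowest in genes with several 3' UTR peaks and a match in 1 of them. Of 29 genes with at least 5 peaks in the 3' UTR and a match in exactly 1, the matched peak was the highest in 18 and the lowest in 1, which was PMEPA1. With at least 3 such peaks there were 87 genes, and the matched peak was the highest in 60 and the lowest in 8. These are counts over 1 list, with no test, and the genes were not matched for peak length or for the gaps between peaks.

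**Figure D2:**
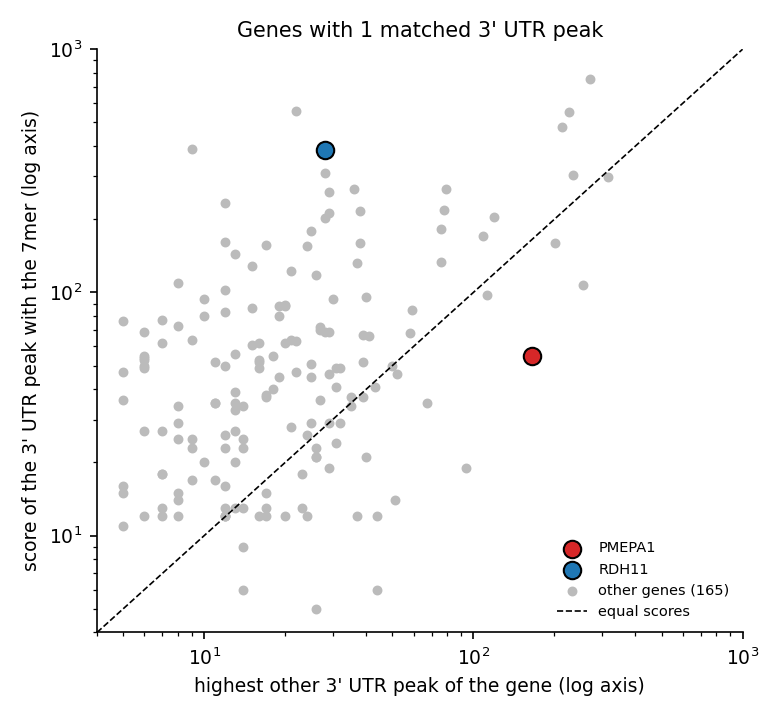
For 167 genes with at least 2 peaks in the 3' UTR and a 7mer match in exactly 1 of them, the score of the matched peak (vertical) against the highest other 3' UTR peak of the same gene (horizontal), both on log axes. RDH11 (386 against 28) lies above the line of equal scores with 127 genes in all, and PMEPA1 (55 against 165) below it with 34 in all; 6 genes lie on the line.

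The PMEPA1 site lay at the edge of its peak. Its centre was listed 59 nt after the peak's centre, and only 2.36% of the 297 sites were farther out. These distances were not scaled to peak length, and a site can lie this far out only in a long peak. With 163 nt the PMEPA1 peak was longer than 94.0% of 3' UTR peaks, whose median length was 76 nt. Listed offsets run 5' to 3' along the transcript: the spacing of 66 pairs of sites in different 3' UTR peaks of a transcript matched the transcript within 1 nt in all 66 when read this way, and in 1 when read the other way. Read so, 18 nt of the peak followed the listed site, and the next peak, chr20:56225858-56226099, which scored 136, began 22 nt after it. No site was listed in that 242-nt peak.

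The 9 PMEPA1 peaks formed 1 almost unbroken tract. They ran from 56226959 down to 56225858 on chromosome 20, a stretch of 1102 nt that began 828 nt before the listed site and ended 264 nt after it. The 8 gaps between them were 2 to 4 nt long and summed to 22 nt. Only 7 of the 910 genes with a 3' UTR peak had more of them than PMEPA1. Joining peaks less than 50 nt apart turned the 9 into 1 region. Gaps of at most 5 nt were also common elsewhere: they separated 12 of 20 neighbouring pairs in the 3 genes (60%) and 34.3% of 3418 pairs over all genes. By gene these were 8 of 12 pairs for PMEPA1, 3 of 7 for FKBP5 and 1 of 1 for RDH11. The 8 in PMEPA1 all lie within this 1 tract. Such pairs are not independent, so no interval is given and no excess is read from the share.

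**Figure D3:**
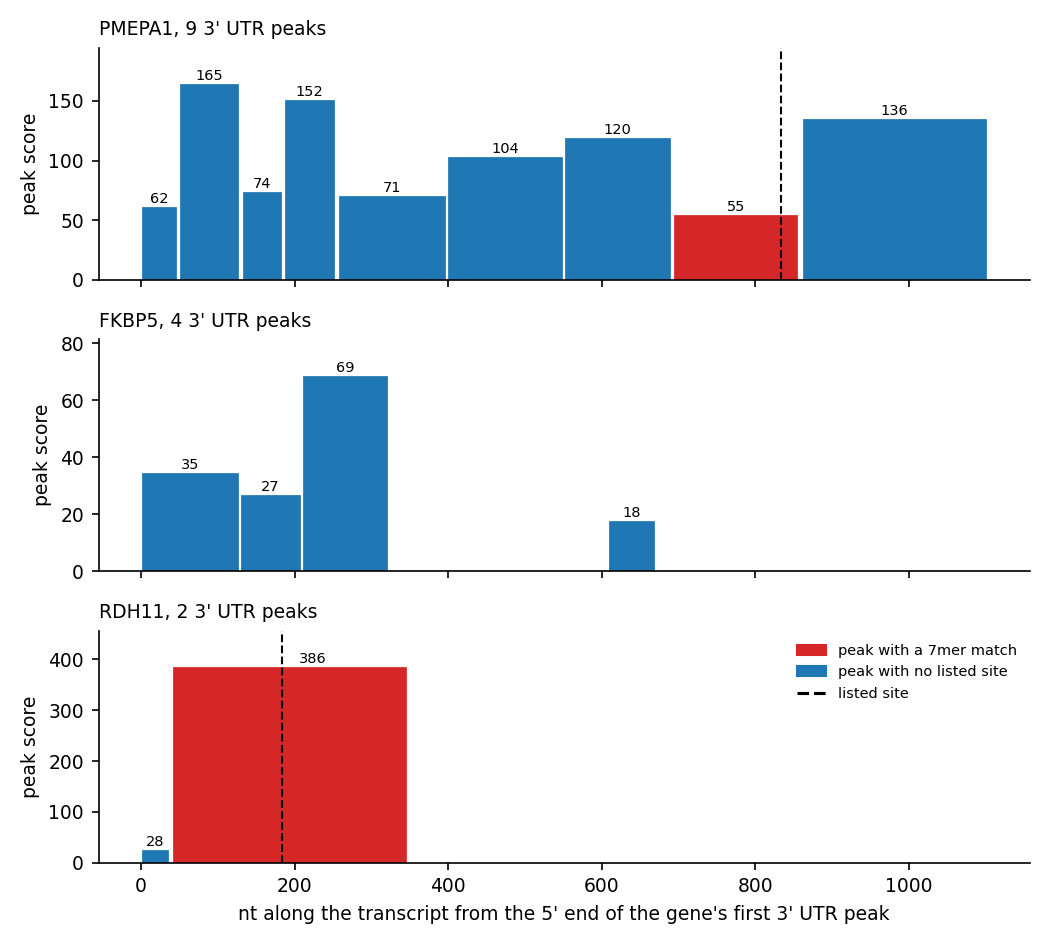
The 3' UTR peaks of PMEPA1, FKBP5 and RDH11 drawn to scale along the transcript, from the 5' end of each gene's first 3' UTR peak in nt; bar height is the authors' score (linear, own scale per gene), and the dashed line is the listed miR-194 site. The site is central in the RDH11 peak of 386 and lies at the 3' edge of the PMEPA1 peak of 55, beside the peak of 136.

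Outside its 3' UTR, PMEPA1 had a peak at its transcription start and 3 in introns. The first covers chr20:56284901-56285083 (183 nt), scored 129 and ranked 8th among the 425 peaks of that class, whose median was 14. The intron peaks scored 47 in intron 2 of 3 (chr20:56234558-56234624), and 23 and 19 in intron 1 of 3. Their scores were higher than those of 99.4%, 95.5% and 90.2% of the 1585 intron peaks, whose median was 13. None of these 4 peaks had a listed site, and in introns only 4.61% of peaks held a 7mer match.

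FKBP5 had lower scores and no miR-194 site. Its 3' UTR peaks scored 35, 27, 69 and 18 in 5' to 3' order, in exon 11 of 11. The first 3 adjoin each other with gaps of 2 nt over chr6:35543018-35543338, and the last, chr6:35542670-35542730, lies 287 nt farther on. The peak of 69 scored above 94.7% of the 3' UTR peaks without a listed site, and the peak of 18 above 62.6%. The intron peaks scored 14, 5 and 24 in intron 1 of 6 and 12 in intron 3 of 6. The score of 5, at chr6:35649610-35649656, is the lowest in the list, and this peak lies 3 nt from the one of 14. Of the intron scores, 24 exceeded 96.2% of intron peaks and 12 exceeded 18.0%.

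The order of the highest scores was RDH11 with 386, PMEPA1 with 165 and FKBP5 with 69. Of the 3659 genes with a peak, 26, 123 and 386 had a higher one. By number of peaks the order was PMEPA1, FKBP5 and RDH11, and 7, 40 and 770 genes had more. Without replicates the error of these places is unknown. By number and ranked scores of peaks, RDH11 was most like RPL6 (399 and 33) among 848 genes with 2 peaks, with a mean difference of 0.14 on the log2 score scale, and then LAMP2 with 0.30. FKBP5 was most like UBR4 (0.26) and FLVCR1 (0.29) among 12 genes with 8 peaks. PMEPA1 had 3 genes with 13 peaks to be compared with, and the nearest were ZBTB10 (0.55) and IQGAP1 (1.40). Likeness used neither the part of the gene nor the listed sites. The 8 peaks of UBR4 and the 2 of RPL6 were all in coding exons, and the 13 of ZBTB10 all in the 3' UTR.

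Among 49 other androgen-induced genes, 16 had a peak and 7 of these a 7mer match (43.8%, 19.8 to 70.1%), beside the 23.6% of all genes with a peak. The median of their highest scores was 27.5, against 17 for all genes. The list was chosen with earlier results of these data known. Its share and median therefore describe the listed genes only, not androgen-induced genes at large. The highest matched peaks were those of ZBTB10, a zinc finger gene (756, 3' UTR), of SPCS3, a signal peptidase subunit (305, 3' UTR), and of STEAP2, a metalloreductase (185, 3' UTR). The other matched peaks were those of TSC22D1 (30), the prostaglandin dehydrogenase gene HPGD (25), the sulfate transporter gene SLC26A2 (24) and the sorbitol dehydrogenase gene SORD (22). Without a 7mer match, the highest peaks were those of the amino acid transporter gene SLC38A2 (745, with a variant site), SLC45A3 (71), the stearoyl-CoA desaturase gene SCD (61) and CENPN (33). The highest RDH11 score, 386, lay below those of ZBTB10, SLC38A2 and STEAP2, whose highest peak scored 455 in a coding exon with no site, and above that of SPCS3.

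**Figure D4:**
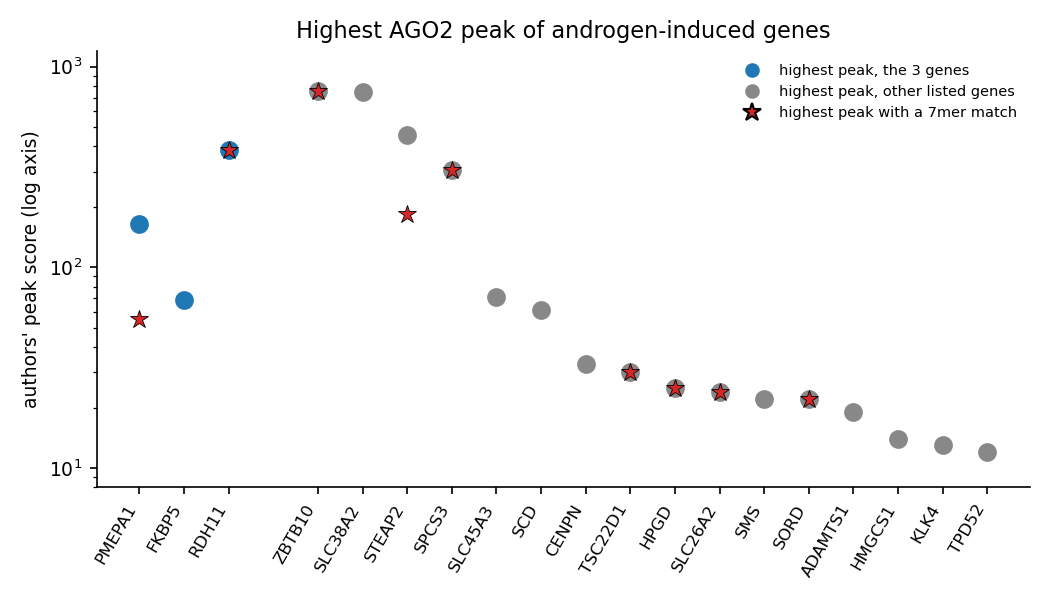
Highest AGO2 peak score (circles, log axis) and highest score of a peak with a 7mer match (stars) for PMEPA1, FKBP5 and RDH11 and for the 16 other listed androgen-induced genes with a peak. In RDH11 the highest peak (386) is the matched one, in PMEPA1 the matched peak (55) is lower than the highest (165), and FKBP5 has no matched peak.

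Some partners of the 3 genes had peaks as well, and others had none. Of 23 genes of steroid receptor chaperones and coregulators, 14 had a peak and 1 of these a 7mer match (7.14%, 0.181 to 33.9%), the heat shock gene HSPA4 (21). The interval includes the 23.6% of all genes with a peak. Without a 7mer match the highest scores were 548 for the heat shock gene HSPA8, 250 for the pioneer factor gene FOXA1, 179 for the acetyltransferase gene CREBBP, in a peak with a 6mer, and 28 for HSP90AA1, one of the HSP90 genes. Of 18 genes of TGF-beta signalling and ubiquitin ligases that work with PMEPA1, 6 had a peak and 1 of these, SKI, a 7mer match (12, intron; 16.7%, 0.421 to 64.1%), an interval that also includes 23.6%. The ubiquitin ligase gene NEDD4L had 4 peaks in its 3' UTR of up to 69, the highest with a 6mer and none with a 7mer match, SMAD4 reached 57, SMAD7 25 and the ligase gene ITCH 23.

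The families of FKBP5 and RDH11 are described by counts alone. Of 14 other FKBP genes 3 had a peak and 1 of these a match (33.3%, 0.840 to 90.6%), beside 23.6% of all genes with a peak. FKBP2 had 1 peak at a transcript end with an 8mer and a score of 228, whereas FKBP4 (21) and FKBP10 (12) had no 7mer match. Of 24 retinol and short-chain dehydrogenase genes 4 had a peak and 1 of these a match (25%, 0.631 to 80.6%). HSD17B4, a peroxisomal enzyme of fatty acid breakdown, had a match in a coding exon peak of 65, and RDH14 (76), HSD17B12 (13) and DHRS11 (12) had no 7mer match. No list was tested against other genes, and genes with many peaks had more chances of a match.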

How the data were processed

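The data were 1 table of AGO2 HITS-CLIP peaks from 22RV1 cells, covering 6 libraries. The build is hg19 per the submitters' processing notes, which name MACS2, SAMtools, TopHat2 2.0.9, FastQC and cutadapt 1.8.1 with neither order nor settings. The deposited score is a whole number per merged peak; its scale, and whether libraries were pooled, are not given in the sources used here. The depth is unknown, and there were 0 columns of other samples.

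Peaks were selected by gene name. Listed sites were classed by the seed of miR-194-5p (RefSeq). A total of 3985 of the 4130 listed RefSeq accessions matched a GENCODE 29 transcript. Pairing energies came from ViennaRNA 2.7.2 (duplex folding). Shares of member peaks or listed genes with a match have exact Clopper-Pearson 95% intervals, and the limit for a count of 0 is 3 counts. Gene likeness is the mean absolute difference of log2 scores ranked from high to low, between genes with equal numbers of peaks. Site classing and the joining of peaks were checked on simulated data. Python 3.11.15, pandas 2.3.3, numpy 2.4.6, scipy 1.17.1 and matplotlib 3.10.9 were used.

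All peaks of the 3 genes were named. In each gene list, up to 8 genes with a match and the 4 highest without one were named. The members and lists were chosen with earlier results of these data known, and no test was made. Some listed genes are not reported here and were left out of the list counts. Alternatives were the score threshold, the joining of close peaks, the part of the gene, the class of site and the score per length.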

Additional observations from a re-analysis of the deposited data

How the results depend on the processing

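With peaks under 50 nt apart joined, PMEPA1 had 5 regions, FKBP5 5 and RDH11 1, of which 1, 2 and 1 were in 3' UTRs. FKBP5 had 5 peaks above the median score and 4 in its 3' UTR. In 3' UTR peaks only, the median score was 104 for PMEPA1 (74 over all its peaks) and 31 for FKBP5 (21), and FKBP5 had a median of 27 with only peaks over the list's median kept. Within 3' UTR peaks the highest peak lay above 96.9% (PMEPA1) and 89.4% (FKBP5). With scores divided by length the highest value lay above 98.6%, 87.5% and 96.0% of all peaks for PMEPA1, FKBP5 and RDH11, and the matched peak held 2.79% of the sum in PMEPA1 and 62.6% in RDH11. With 8mers only, 0% of the 23 member peaks had a match, beside 4.16% of all peaks. The other 18 alternatives stayed within 1.5 times the count or within the interval of the share, or gave the same value. No paired analysis was possible because the table has no value per library, and for the same reason no library could be left out. Depth is unknown, so nothing can be said of peaks too weakly covered to be called.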

Other observations

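Low scores often stood beside another peak of the same gene. Of 882 peaks with a gene name and a score under 10, 57.7% lay within 5 nt of another peak of that gene, as did 25.7% of the 6235 scoring 10 or more. The FKBP5 intron peak of 5 is such a peak, and the lowest score in the list was shared by 175 peaks.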
